A study of Homo sapiens with 4 samples.

Results

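The 51 genes described here are the NRF2 antioxidant and detoxification genes, a list of the pathway's sensor and transcription factor and of enzymes and pumps linked to it, out of 58302 genes in the deposited tables. They were chosen by name, for their place in the pathway, with earlier results of these data known. They were ranked by RPKM (reads corrected for gene length and library depth). RNA-seq was performed on MIB1-iKO cells, which derive from NCI-H838, a line of human non-small cell lung cancer. All 4 samples carried a piggyBac construct with a guide RNA against MIB1, a doxycycline-inducible Cas9 and puromycin resistance. The 2 no dox samples were left without doxycycline (dox), and the 2 dox samples received 0.5 μg/mL for 3 days, so that every sample was a day 3 sample. MIB1-iKO lines were single-cell clones, and the labels do not name the clone or guide. No sample without the guide was analysed here, so the effect of dox itself and that of MIB1 loss cannot be told apart. The labels also do not say what a replicate was taken from, and the p-values measure only the spread between these samples, which may be technical. In bulk RNA, fewer cells of a type and less RNA per cell cannot be told apart.

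NRF2, the product of NFE2L2, is the transcription factor that switches on antioxidant and detoxification genes. In resting cells KEAP1 presents NRF2 to a CUL3 ubiquitin ligase for degradation. When electrophiles or oxidants modify KEAP1, NRF2 accumulates and binds antioxidant response elements together with small MAF proteins. Lung cancers often lose KEAP1 function, and NCI-H838 is known as a line with an inactivating KEAP1 mutation, which RNA counts do not test.

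The question asked of the levels was how the antioxidant program stood in these cells without dox, and the question asked of the comparison was whether it moved with dox at day 3. Without dox, 16 of the 51 genes had a mean of at least 100 RPKM, 10 lay between 10 and 100, 14 between 1 and 10, and 11 were under 1 RPKM. Of the 16181 genes tested, 972 were at 100 RPKM or more, 4411 between 10 and 100, 7184 between 1 and 10, and 3614 under 1. The 51 also hold genes with too few reads to be tested. FTL, GSTP1, TXN and PRDX1 stood above the other genes, each with a mean of at least 1174 RPKM. The 11 under 1 RPKM were NR0B1, CYP4F11, ABCC2, GSTM1, ABCC3, AKR1C2, AKR1C1 and GPX2, in falling order, and UGT1A6, ALDH1A1 and ALDH3A1, which had 0 reads. With dox, none of the 46 genes that could be tested was called, NFE2L2 and KEAP1 among them.

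The total counts lay between 15943025 and 24398411 reads, lower in both dox libraries, and 23529 to 24223 genes had a read. A listing of 0 reads allows up to 3, a limit that covers counting error only. MIB1, the ubiquitin ligase targeted, was at 598 and 588 reads in the no dox libraries against 90 and 59 in the dox libraries, and its log2 fold change was −2.58 ± 0.23 (SE), with a limma adjusted p of 0.000375. Of the epithelial markers, EPCAM, CDH1, KRT7, KRT8 and KRT18 had between 234 and 2448 reads and KRT19 had 0. The lung markers NKX2-1, SFTPB, SFTPA1 and SCGB1A1 had 0 reads in every library, and NAPSA and SFTPC at most 8, so the defining genes of normal lung epithelium were absent or nearly so. The leukocyte gene PTPRC had 0 reads, and no leukocyte or endothelial marker exceeded 35.

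**Figure D1:**
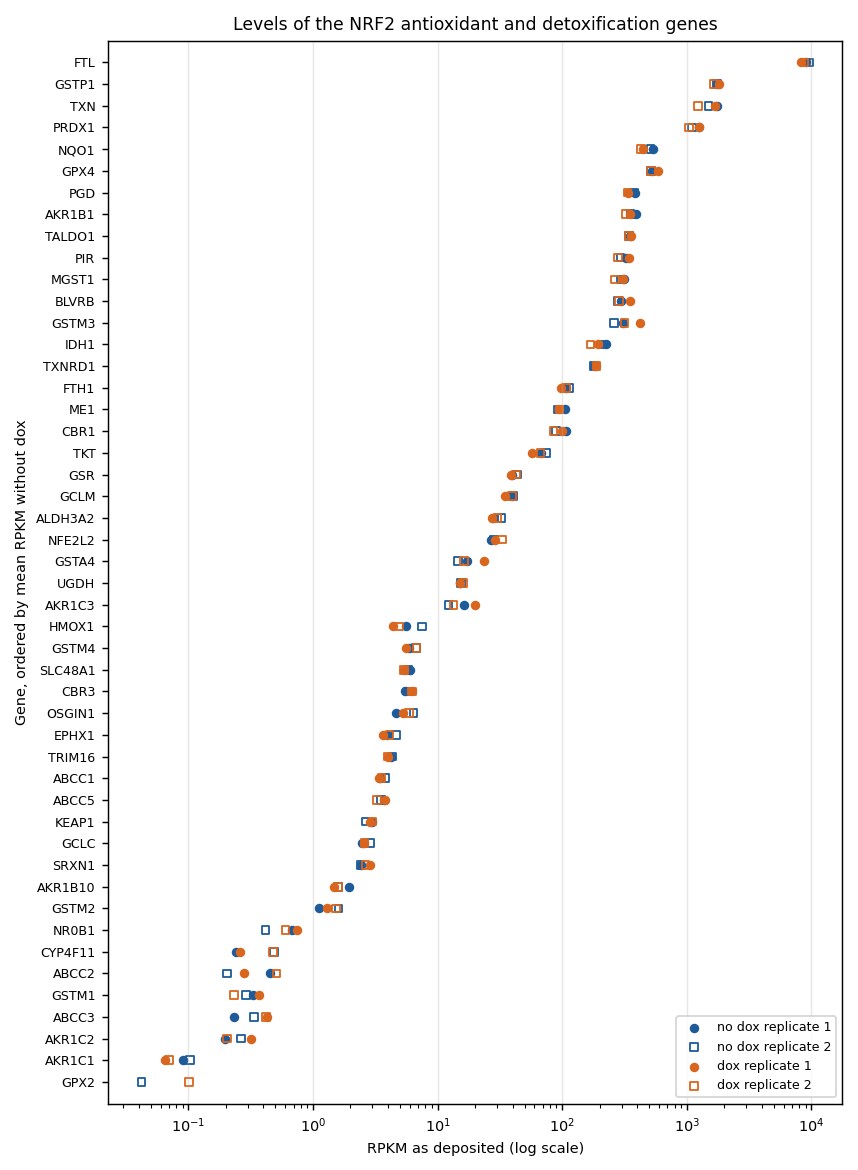
RPKM as deposited (log axis) of the 48 genes with a read in any library, ordered by their mean without dox, with 1 symbol for each of the 4 libraries and zeros left out. FTL sits at 8222 RPKM or above in every library, AKR1C1 and GPX2 lie under 0.11, and for most genes the symbols of the 4 libraries lie close together compared with the distance between genes.

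NFE2L2 (chr2:177218667-177392756, minus strand) had 26.8 and 28.3 RPKM in no dox replicates 1 and 2, and 28.7 and 33.1 RPKM in dox replicates 1 and 2. In RPKM both dox libraries were above both no dox libraries, with dox replicate 1 close to no dox replicate 2. This order depends on the per-library scaling of the deposited RPKM, which differs from that of the total counts. The means were 27.6 ± 1.11 and 30.9 ± 3.06 RPKM (SD, n = 2 each), and the log2 fold change was 0.18, with a 95% interval of −0.09 to 0.44 (limma adjusted p = 0.705). The NFE2L2 locus overlaps HNRNPA3 on the other strand, and 36.1% of the 50-base windows of its transcripts are also in transcripts of other genes, so part of its count may belong to them.

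KEAP1 (chr19:10486125-10503558, minus strand) had 2.99 and 2.64 RPKM without dox and 2.85 and 3.01 RPKM with dox. The groups overlapped, and the log2 fold change was 0.08, with an interval of −0.33 to 0.48 (limma adjusted p = 0.938). As counted, NFE2L2 was the more abundant transcript of the pair in every library. It stood at 8.94 and 10.8 times KEAP1 in RPKM without dox and 10.1 and 11.0 times with dox. Part of the NFE2L2 count may belong to genes that share its sequence, so the size of these ratios is uncertain. KEAP1 shares only 0.187% of its windows. In the ranking of all genes tested NFE2L2 stood at the percentile 82.2 and KEAP1 at 42.3.

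Of the 46 genes tested, 0 were called by limma (a 2-fold change with an adjusted p no higher than 0.05), where 0.0371% of the 16181 genes tested were called (6 genes). Without the fold criterion the count was also 0, beside 0.068% of all genes tested, and the lowest adjusted p was 0.246. Unadjusted p-values under 0.05 were found for 4 genes, GSTM3 higher and NQO1, IDH1 and HMOX1 lower with dox, which is 8.70% of the list beside 9.28% of all genes tested (4.68% higher and 4.59% lower). By edgeR and by DESeq2 0 were called as well, and 2 genes had an unadjusted p under 0.05 in each. The median log2 fold change of the 46 genes was 0.0011 beside −0.0004 over all genes tested, with 24 genes above 0 and 22 below. The range ran from −0.51 for AKR1C1, at 7 to 16 reads, to 0.59 for ABCC3, at 35 to 49 reads.

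The intervals say how large a change the libraries leave room for. For 41 of the 46 genes the 95% interval lay within a 2-fold change in either direction, and for 33 within 1.5-fold. The 5 genes with wider intervals than 2-fold were AKR1C1, AKR1C2, ABCC2, ABCC3 and NR0B1, all at under 1 RPKM. In RPKM the dox libraries were both higher in 6 genes, where 18.1% of all genes tested were so, and both lower in 10, where 20.5% were so. The 6 were NFE2L2, GSTM3, TXNRD1, SRXN1, CBR3 and ABCC3, and the 10 were NQO1, HMOX1, SLC48A1, FTL, PGD, TKT, IDH1, AKR1B1, AKR1C1 and TRIM16. The deposited RPKM carry a scaling per library that differs from the total counts. Every statement of overlap or separation in RPKM, here and below, holds on that scale only. With the total counts alone some genes would change group, NFE2L2, TXNRD1 and FTL among them. With only 2 libraries a group, an exact permutation test of a single gene cannot give a two-sided p below 0.333, so no such test was used.

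**Figure D2:**
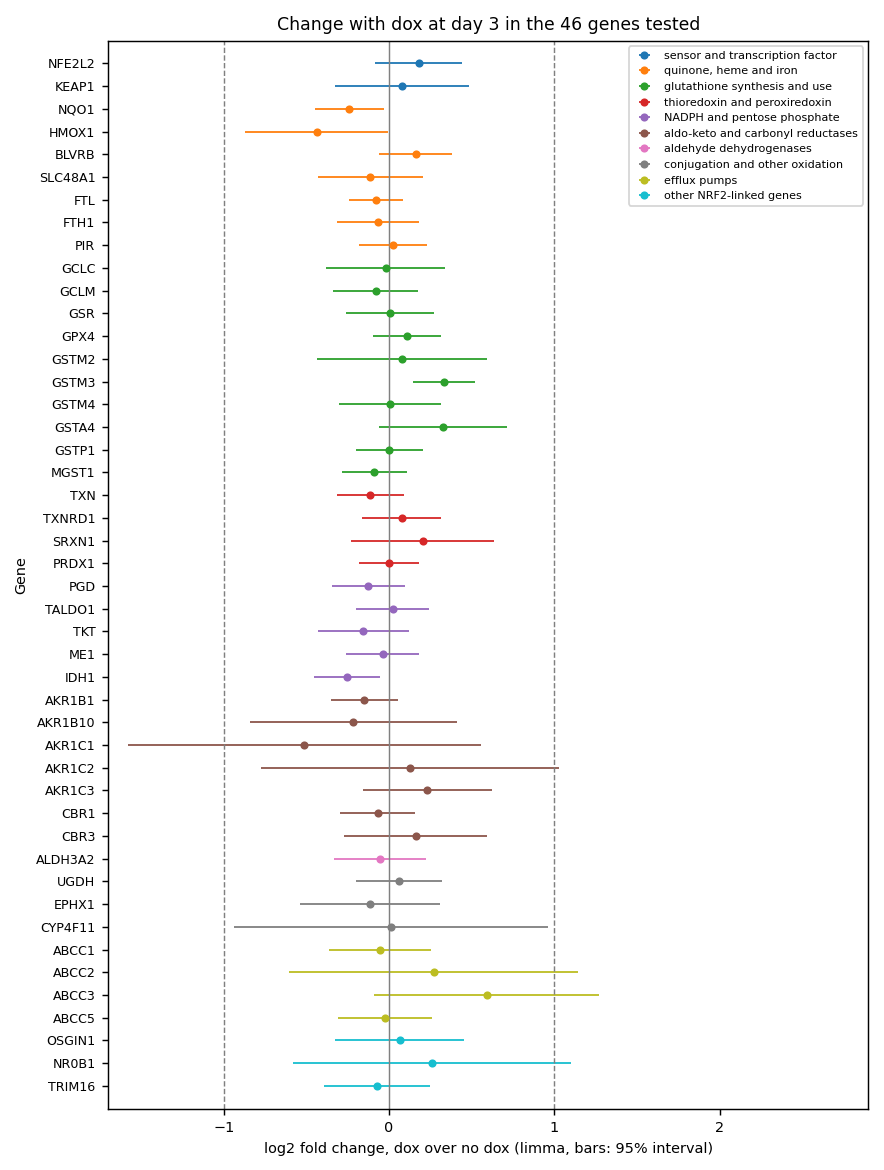
log2 fold change of dox over no dox (limma) in the 46 genes tested, in the order of their roles, with 95% intervals as bars and dashed lines at a 2-fold change in each direction. The intervals of most genes cross 0 and stay between the dashed lines, and the widest belong to AKR1C1, NR0B1, CYP4F11, AKR1C2 and ABCC2.

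The quinone, heme and iron genes were NQO1, HMOX1, BLVRB, SLC48A1, FTL, FTH1 and PIR, and of these 7 genes none was called, 2 lay above 0 and 5 below. NQO1 (chr16:69706996-69726668, minus strand), a quinone reductase and the usual reporter of NRF2 activity, had 534 and 512 RPKM without dox and 442 and 427 RPKM with dox. The groups did not overlap, and replicates within a group were closer to each other than the groups were. The mean went from 523 ± 15.8 to 435 ± 10.6 RPKM, a ratio of 0.832, with a log2 fold change of −0.24 ± 0.10 (SE) and an interval of −0.45 to −0.03. The limma adjusted p was 0.458, so the difference did not pass the test.

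HMOX1, the heme oxygenase that frees iron from heme, had 5.56 and 7.52 RPKM without dox and 4.36 and 4.97 RPKM with dox. Both dox libraries were lower, but the no dox libraries also lay far apart from each other. The log2 fold change was −0.44 ± 0.20 (SE), with an interval of −0.87 to −0.01 (limma adjusted p = 0.530). HMOX1 stood at the percentile 58.9 of the genes tested, far below NQO1 at 99.2 and BLVRB at 98.2. SLC48A1, which carries heme across membranes, had 5.89 ± 0.0922 RPKM without dox and 5.39 ± 0.0332 with dox, and its log2 fold change of −0.11 missed the threshold (limma adjusted p = 0.864).

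FTL, the light chain of the iron store ferritin, was the most abundant gene of the list, at 8985 and 9587 RPKM without dox and 8222 and 8802 RPKM with dox. The dox libraries were lower without overlap, although dox replicate 2 and no dox replicate 1 were close. The log2 fold change was −0.08, with an interval of −0.24 to 0.08 (limma adjusted p = 0.791). FTL alone took 0.690% to 0.869% of the reads of a library, of 2.13% to 2.32% for all 51 genes. FTH1, the heavy chain, had 109.7 ± 4.48 RPKM without dox and 103 ± 5.87 with dox, so that FTL exceeded FTH1 by 82.2 to 84.9 times in every library. That ratio rests on counts that share sequence with other genes. For FTL, 18.5% of the transcript windows are also in the pseudogenes FTLP3 and FTLP2, and FTLP3 was itself given 53091 and 51746 reads in the no dox libraries against 30336 and 39281. For FTH1, 57.9% of the windows are shared, mostly with BEST1 on the other strand and with its pseudogenes, and 25 FTH1 pseudogenes in the table held 307 and 352 reads in sum in the no dox libraries against 185 and 262. How reads that match several places were counted was not given in the sources used here.

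PIR, an iron-binding nuclear protein, had 326 and 295 RPKM without dox and 347 and 281 RPKM with dox. BLVRB had 296 and 281 RPKM without dox and 354 and 288 RPKM with dox. In both genes the groups overlapped and replicate 1 was the higher one in each group. The log2 fold changes were 0.02 for PIR and 0.16 for BLVRB, with intervals of −0.18 to 0.23 and −0.06 to 0.38.

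**Figure D3:**
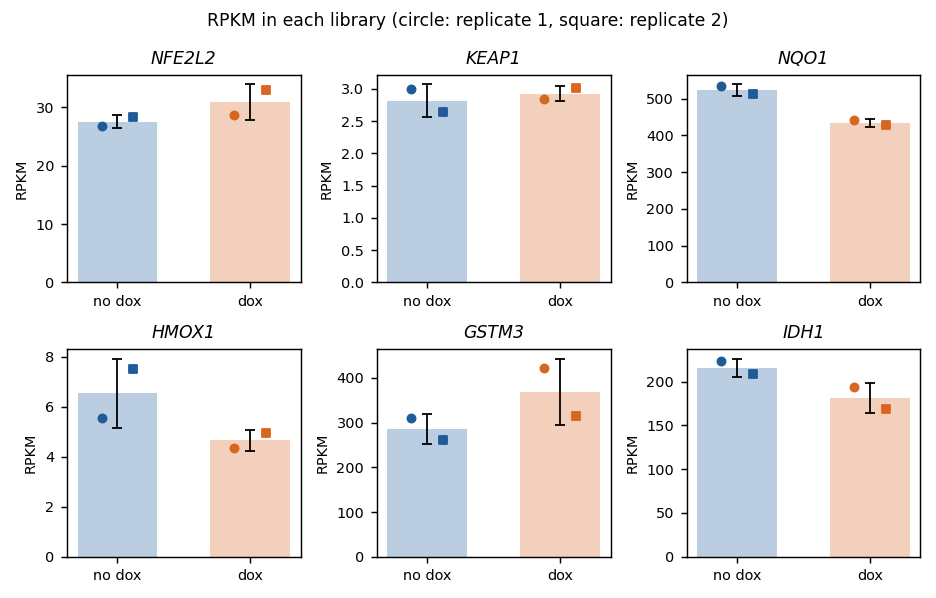
RPKM in each library for NFE2L2, KEAP1, NQO1, HMOX1, GSTM3 and IDH1, with bars at the group mean, error bars of 1 SD (n = 2) and symbols for the replicates. NQO1, HMOX1 and IDH1 are lower in both dox libraries, NFE2L2 and GSTM3 are higher in both, and KEAP1 overlaps between the groups.

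Glutathione synthesis and use was represented by GCLC, GCLM, GSR, GPX2, GPX4, GSTM1, GSTM2, GSTM3, GSTM4, GSTA4, GSTP1 and MGST1. Of these 12 genes 10 were tested (GPX2 and GSTM1 had too few reads), 0 were called, 7 lay above 0 and 3 below, with a median of 0.01. GSTM3 (chr1:109733932-109741038, minus strand), a glutathione transferase of the mu class, had the lowest p of the whole list. It had 309.9 and 262 RPKM without dox and 421 and 316 RPKM with dox. The dox libraries were higher without overlap, but dox replicate 2 lay just above no dox replicate 1, and the dox libraries differed from each other by more than the group means did. The mean went from 286 ± 33.8 to 368 ± 74.4 RPKM, a log2 fold change of 0.33 ± 0.09 (SE) with an interval of 0.14 to 0.52 (limma adjusted p = 0.246). Its mu class neighbours on the chromosome were much lower, with GSTM4 at 6.33, GSTM2 at 1.36 and GSTM1 at 0.309 RPKM without dox, and GSTM1 had only 6 to 11 reads a library.

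GSTA4, an alpha class transferase that acts on lipid aldehydes, had 17.1 and 14.5 RPKM without dox and 23.5 and 16.3 RPKM with dox. The groups overlapped, since dox replicate 2 was below no dox replicate 1. Its log2 fold change was also 0.33, with an interval of −0.06 to 0.72 (limma adjusted p = 0.619). GSTP1, the pi class transferase abundant in many carcinomas, had 1741 and 1749 RPKM without dox and 1822 and 1649.9 RPKM with dox. The no dox libraries lay between the dox libraries, and the log2 fold change was 0.00 with an interval of −0.20 to 0.20.

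GPX4, the peroxidase that clears lipid peroxides, had 525 and 519 RPKM without dox and 591 and 518 RPKM with dox. MGST1, a membrane-bound transferase, had 315 and 296 RPKM without dox and 308 and 264 RPKM with dox. Only dox replicate 1 of GPX4 and dox replicate 2 of MGST1 stood apart from the other libraries, and the groups overlapped. The log2 fold changes were 0.11 for GPX4 (interval −0.09 to 0.31) and −0.09 for MGST1 (interval −0.29 to 0.11).

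GCLC and GCLM encode the catalytic and modifier subunits of glutamate cysteine ligase, the first enzyme of glutathione synthesis. GCLM exceeded GCLC by 15.8 and 14.2 times in RPKM without dox and by 13.6 and 15.3 times with dox. The subunits thus lay at 40.1 ± 0.870 and 2.68 ± 0.271 RPKM without dox, and neither passed the test, at log2 fold changes of −0.08 and −0.02. GSR, which returns oxidized glutathione to its reduced form, had 41.4 ± 2.70 RPKM without dox and 40.8 ± 2.80 with dox.

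The thioredoxin and peroxiredoxin genes were TXN, TXNRD1, SRXN1 and PRDX1, all tested and none called. TXN, the thioredoxin that reduces protein disulfides, had 1739.6 and 1494 RPKM without dox and 1677 and 1227 RPKM with dox. PRDX1, a peroxidase that thioredoxin recharges, had 1248 and 1099.6 RPKM without dox and 1254 and 1043 RPKM with dox. In both genes replicate 1 was above replicate 2 in each group, and the groups overlapped. The log2 fold changes were −0.11 for TXN (interval −0.32 to 0.09) and 0.00 for PRDX1 (interval −0.18 to 0.18).

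TXNRD1, the reductase of thioredoxin, had 179 and 181 RPKM without dox and 188 RPKM in both dox libraries. The dox libraries were higher without overlap by a small margin, with a log2 fold change of 0.08 and an interval of −0.16 to 0.31. SRXN1, which repairs overoxidized peroxiredoxins, had 2.43 and 2.40 RPKM without dox and 2.89 and 2.64 RPKM with dox. It too was higher in both dox libraries, at a log2 fold change of 0.20 with an interval of −0.23 to 0.64 (limma adjusted p = 0.806). Of its transcript windows 90.6% are shared with an unnamed gene on the same strand (ENSG00000270299), to which 2 to 17 reads were given, so the SRXN1 level of 2.42 ± 0.0174 RPKM without dox is uncertain. Peroxiredoxin and thioredoxin were thus among the highest transcripts of these cells, and sulfiredoxin was at the percentile 39.1.

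The NADPH and pentose phosphate genes were PGD, TALDO1, TKT, ME1 and IDH1. None was called, 1 lay above 0 and 4 below, with a median of −0.12. IDH1 (chr2:208236229-208266074, minus strand), the cytosolic isocitrate dehydrogenase, had 223 and 208 RPKM without dox and 194 and 169 RPKM with dox. The dox libraries were lower without overlap. The log2 fold change was −0.25 ± 0.09 (SE), with an interval of −0.45 to −0.05 (limma adjusted p = 0.408).

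PGD, an NADPH-making enzyme of the pentose phosphate pathway, had 381 and 376 RPKM without dox and 340.2 and 334 RPKM with dox. The groups did not overlap and the replicates were close, but the interval of its log2 fold change of −0.12 ran from −0.34 to 0.09 (limma adjusted p = 0.753). TALDO1, the transaldolase, had 349 and 346 RPKM without dox and 354 and 346 RPKM with dox, with a log2 fold change of 0.02 (interval −0.20 to 0.24). TKT, the transketolase, had 70.7 ± 4.43 RPKM without dox and 62.3 ± 6.83 with dox, and ME1, the cytosolic malic enzyme, had 98.8 ± 8.03 RPKM without dox and a log2 fold change of −0.04.

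The aldo-keto and carbonyl reductases were AKR1B1, AKR1B10, AKR1C1, AKR1C2, AKR1C3, CBR1 and CBR3, with 0 of 7 called, 3 above 0 and 4 below. AKR1B1, aldose reductase, had 395 and 355 RPKM without dox and 352 and 326 RPKM with dox. The dox libraries were lower, with dox replicate 1 close to no dox replicate 2, and the log2 fold change was −0.15 with an interval of −0.35 to 0.05 (limma adjusted p = 0.674). AKR1B10, its relative and a common marker of NRF2-active lung tumors, had 1.95 and 1.58 RPKM without dox and 1.49 and 1.60 RPKM with dox. The groups overlapped, at a log2 fold change of −0.22 with an interval of −0.84 to 0.41, and AKR1B1 exceeded AKR1B10 by 202 to 237 times in RPKM. AKR1B10 had 36 to 73 reads a library, and 15.2% of its windows are shared, mainly with AKR1B15.

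The AKR1C genes reduce steroids and aldehydes and lie side by side on chromosome 10. AKR1C3 had 16.4 and 12.3 RPKM without dox and 19.8 and 13.5 RPKM with dox. Replicate 1 was the higher in each group and the groups overlapped, with a log2 fold change of 0.23 and an interval of −0.16 to 0.62 (limma adjusted p = 0.742). AKR1C1 (chr10:4963253-4983283, plus strand) was at 15 and 16 reads in the no dox libraries against 7 and 9 in the dox libraries, and AKR1C2 at 20 and 25 against 21 and 16. AKR1C3 therefore stood 119 to 305 times above AKR1C1 in RPKM. Of the windows of AKR1C1 and AKR1C2, 24.9% and 36.0% are also in other genes, so reads may be split between them and their neighbours. CBR1 and CBR3, which reduce carbonyls on quinones and drugs, had 98.5 ± 12.8 and 5.64 ± 0.256 RPKM without dox and 92.9 ± 10.8 and 6.26 ± 0.0400 with dox. CBR3 overlaps the antisense gene CBR3-AS1, which had 10 to 18 reads, and 64.9% of its windows are shared.

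Of the aldehyde dehydrogenases, ALDH3A2 was at 30.2 ± 3.42 RPKM without dox and 28.8 ± 2.23 with dox, while ALDH3A1 and ALDH1A1 had 0 reads in all 4 libraries. UGDH, which makes the glucuronic acid donor, had 15.3 ± 0.0678 RPKM without dox and 15.6 ± 0.594 with dox. UGT1A6, which transfers glucuronic acid to drugs and other compounds, had 0 reads, and so had each of the 7 UGT1A genes in the table. UGDH thus had reads, and the UGT1A genes listed were at 0. UGT1A6 shares 60.2% of its windows, with other UGT1A genes among others. How shared reads were counted is not known, so these zeros are uncertain. EPHX1, the microsomal epoxide hydrolase, had 4.28 ± 0.472 RPKM without dox and 3.88 ± 0.349 with dox, and CYP4F11, a fatty acid hydroxylase, had 16 to 43 reads a library. None of the 4 genes tested in these roles was called.

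The efflux pumps ABCC1, ABCC2, ABCC3 and ABCC5 export glutathione conjugates and other anions. ABCC1 and ABCC5 had 3.63 ± 0.253 and 3.63 ± 0.159 RPKM without dox, and ABCC2 and ABCC3 had 0.326 ± 0.173 and 0.283 ± 0.0725. ABCC3 was counted 35 and 47 times without dox, and 42 and 49 times in the smaller dox libraries. Its log2 fold change was 0.59 with an interval of −0.09 to 1.27 (limma adjusted p = 0.607). None of the 4 pumps was called. The remaining genes were OSGIN1, an oxidative stress response gene, NR0B1, an orphan nuclear receptor, and TRIM16, a ubiquitin ligase. They had 5.54 ± 1.26, 0.545 ± 0.185 and 4.28 ± 0.115 RPKM without dox, and none was called. TRIM16 shares 46.6% of its windows, and TRIM16L, its near copy, had 635 to 954 reads.

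**Figure D4:**
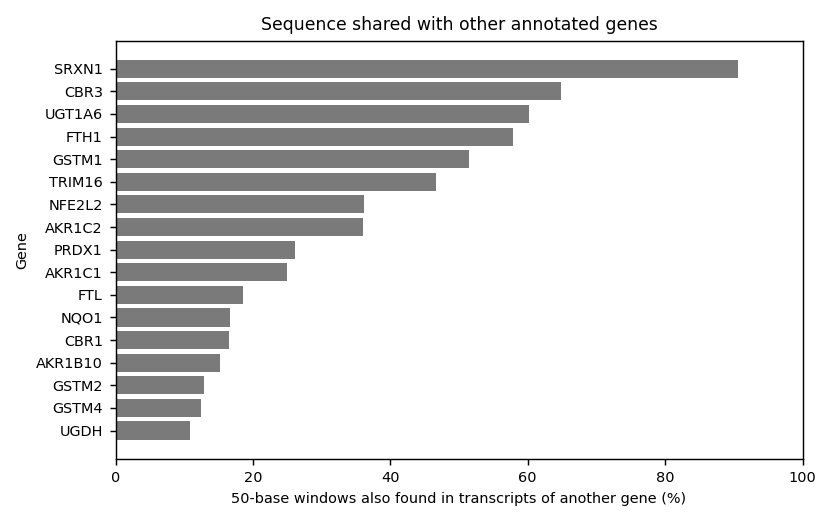
Share of the 50-base windows of a gene's GENCODE 44 transcripts that also occur in transcripts of another gene on either strand (%), for the 17 genes of the list at 10% or more. SRXN1, at 90.6%, CBR3, at 64.9%, and UGT1A6, at 60.2%, have the largest shares, and among the genes at 100 RPKM or more FTH1 has 57.9%, PRDX1 26.1%, FTL 18.5% and NQO1 16.7%.

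The shared windows matter because the reads were 50 bases long and neither the use of strand nor the treatment of repeats in counting is known for these samples. No window was shared for 14 genes, among them HMOX1, BLVRB, GPX4, GSTP1, TXNRD1, TKT and ME1. Their counts thus do not depend on exact sharing with annotated transcripts. The alignment allowed mismatches, and near copies were not searched for. For PRDX1 the sharing was mainly with MMACHC, a neighbour with 795 to 1219 reads, and PRDX1 had 23667 to 36722.

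A wider list of 98 other genes of the pathway, its partners and its tumor signatures was set beside the 51. Of these, 82 were tested and 0 called, beside 0.0371% of all genes tested. By limma 9 had an unadjusted p under 0.05 (11.0%, 5 higher and 4 lower). Over all genes tested that share was 9.28% (4.68% higher and 4.59% lower). The median log2 fold change of the 82 was 0.01. By edgeR 0 were called, and by DESeq2 0 were called while TFRC alone passed the adjusted threshold of 0.05. TFRC, the transferrin receptor that brings iron into the cell, had 194 RPKM in both no dox libraries and 128 and 136 RPKM with dox. The groups were well apart, the log2 fold change was −0.52 with an interval of −0.76 to −0.28, and the limma adjusted p was 0.166. FTL, of the iron store ferritin, was also lower in RPKM in both dox libraries, but only at −0.08. FTH1, of the same store, overlapped between the groups at −0.07. Neither TFRC nor FTL passed the test by limma.

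BACH1, a repressor that competes with NRF2 for its elements, had 4.92 and 5.80 RPKM without dox and 6.22 and 8.67 RPKM with dox. Both dox libraries were higher and lay far apart, with a log2 fold change of 0.50 and an interval of 0.15 to 0.84 (limma adjusted p = 0.355). MAFF, a small MAF partner, had 3.11 and 3.34 RPKM without dox and 3.36 and 5.53 RPKM with dox. Its log2 fold change of 0.46 (interval −0.02 to 0.94, limma adjusted p = 0.555) rested mainly on dox replicate 2. PTGES, a prostaglandin E synthase, had 57.3 and 61.0 RPKM without dox and 44.9 and 45.5 RPKM with dox, with a log2 fold change of −0.35 and an interval of −0.60 to −0.10 (limma adjusted p = 0.357). SLC7A11, the cystine importer often high in NRF2-active tumors, was named after its values were seen. It had 0.547 and 0.554 RPKM without dox and 0.592 and 0.326 RPKM with dox, at the percentile 13.0 of the genes tested.

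Values of genes outside the pathway are given for the same libraries. All 10 S-phase genes examined had a log2 fold change below 0, with a median of −0.39 and 0 called. Of all 16181 genes tested, 8101 lay below 0. The summed S-phase level was 680 to 735 RPKM without dox and 529 to 603 with dox. PCNA was the largest part of that sum, at a mean of 353 RPKM without dox and 285 with dox. Its groups overlapped, while those of the other S-phase genes did not. All 6 BMP response genes lay above 0, with a median of 0.55, where 8080 of all genes tested lay above 0. Of the 6, 1 was called (SMAD9), beside 0.0371% of all genes tested. ID3, at 0.04, and SMAD7, at 0.21, overlapped between the groups, while the other BMP response genes did not. The lower values of NQO1, IDH1, HMOX1 and TFRC stood in the same libraries as the lower summed S-phase level and the lower total counts, and the part of these in the differences was not tested.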

How the data were processed

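RNA-seq of 4 samples was analysed from tables the authors deposited. The authors discarded ribosomal RNA reads, used GSNAP to align the others to GRCh38, and took exon counts with HTSeqGenie. The deposited counts are whole reads per gene, not normalized. The RPKM values the authors deposited carry a further scaling per library (0.932, 0.649 and 0.771 relative to no dox replicate 1, where totals stood at 0.869, 0.653 and 0.699). The methods name a RefSeq annotation, but the identifiers are Ensembl. The methods give 2 library kits without saying which was used here, and the use of strand in counting is not given in the sources used here.

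The labels gave the groups and the replicate numbers. No library was a repeat of another (chi-square per degree of freedom of at least 8.18). Symbols and positions are from GENCODE 44 (57532 of 58302 identifiers had a symbol). GSTT1 was not analysed here. Genes passing filterByExpr (16181) were quantile-normalized and fitted with voom, lmFit and eBayes (limma 3.58.1, R 4.3.3), without covariates. Benjamini-Hochberg adjustment ran over all genes tested, and calls needed an adjusted p no higher than 0.05 with a log2 fold change of 1 or more in size. Levels are RPKM, and errors beside them are SD. Scripts were tested on simulated data. Values in every library were given for NFE2L2, KEAP1, the 12 members highest in RPKM without dox, those with an unadjusted p under 0.05, and the 4 highest and 4 lowest fold changes among members with a mean count of at least 50. Of the other pathway genes, the 2 highest and 2 lowest at that count were named. Members and lists were chosen with earlier results of these data known. Alternatives were edgeR 4.0.16, DESeq2 1.42.0, other normalizations and filters, limma on log2(RPKM + 0.1) and log2(RPKM + 1), a replicate term, and leaving out each library.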

Additional observations from a re-analysis of the deposited data

How the results depend on the processing

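No gene of the list was called under any of the 9 other settings or without any 1 library. In the fit of the report none had an adjusted p up to 0.1 when no fold was required. The number with an unadjusted p under 0.05 was 2 by edgeR, DESeq2 and voom with TMM, 1 on both log2(RPKM) scales, 3 with library size only or with a filter of 1 read, 4 with a minimum mean count of 50, and 0 to 5 when 1 library was left out, with the lone sample assumed to vary like the other group. Without no dox replicate 2 it was 0, and HMOX1 was then at −0.24; without dox replicate 1 NQO1 was at −0.11. The median log2 fold change lay between −0.03 and 0.0022 in the other settings and between −0.09 and 0.04 without 1 library. The replicate numbers share no stated origin, and the replicate differences of both groups correlated at 0.228 over genes. The replicate block leaves 1 residual degree of freedom. With it 14 of the 46 genes tested had an unadjusted p under 0.05, 6 of them higher with dox. That is a larger share than the 20.2% of all genes tested. NQO1, GSTM3 and IDH1 then passed the adjusted threshold of 0.05, 3 of 46 genes where 1154 of all 16181 did so, which is about the same share. Of the 82 other pathway genes tested 10 passed it, a larger share than over all genes tested. These were BACH1, SLC3A2, GPX3, GPX8, SESN1, MTHFD1L, NQO2, DHRS2, TFRC and PTGES. Only DHRS2 of them was called, at 13 and 14 reads in the no dox libraries against 2 and 0, where 78 of all genes were called. SLC3A2, GPX3, GPX8, SESN1, MTHFD1L, NQO2 and DHRS2 are named after their values were seen.

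MIB1 kept its direction but missed the adjusted threshold with a filter of 1 read (−2.58), on log2(RPKM + 0.1) (−2.33), on log2(RPKM + 1) (−1.34) and without 1 library (−3.00 to −2.16). Signs turned in 5 members near 0, and the cause was not tested. The values under edgeR, DESeq2, voom with TMM, library size only, log2(RPKM + 0.1) and log2(RPKM + 1), in that order, were −0.015, −0.0088, −0.016, −0.0011, −0.021 and −0.021 for GSR. For GSTM4 they were −0.019, −0.013, −0.019, −0.0077, −0.031 and −0.027, and for PRDX1 −0.027, −0.021, −0.028, −0.020, −0.035 and −0.035. GSTP1 was at −0.0032 by edgeR, −0.0035 with TMM and −0.0093 on both RPKM scales, and CYP4F11 at −0.034 with the block. Leaving out 1 library turned the sign of 24 members, whose log2 fold changes then ranged from −0.24 to 0.83 for ABCC2, −0.12 to 0.073 for ABCC5, −0.13 to 0.38 for AKR1C2, −0.038 to 0.51 for AKR1C3, −0.21 to 0.096 for ALDH3A2, −0.14 to 0.0054 for CBR1, −0.50 to 0.48 for CYP4F11 and −0.18 to 0.038 for FTH1. They ranged from −0.11 to 0.058 for GCLC, −0.24 to 0.072 for GCLM, −0.11 to 0.12 for GSR, −0.17 to 0.31 for GSTM2, −0.13 to 0.14 for GSTM4, −0.087 to 0.099 for GSTP1, −0.023 to 0.18 for KEAP1 and −0.13 to 0.044 for ME1. For NR0B1 the range was −0.053 to 0.60, for OSGIN1 −0.16 to 0.27, for PIR −0.023 to 0.065, for PRDX1 −0.020 to 0.022, for TALDO1 −0.057 to 0.098, for TKT −0.34 to 0.016, for TXN −0.23 to 0.00051 and for TXNRD1 −0.056 to 0.20. The 12 highest genes were the same 12 with RPKM recomputed from the totals and in no dox replicate 2 alone, and 11 of them in replicate 1 alone.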
